A study of Homo sapiens with 6 samples.

Results

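The si2 group, 2 libraries of SK-MES-1 cells labelled as a KRT6A knockdown, was compared with the control group NC, also 2 libraries, across all genes. These are 4 of the 6 libraries of the study. SK-MES-1 is a human cell line from a squamous carcinoma of the lung, the same line was used in every group, and the knockdown was transient. The remaining 2 libraries form a second knockdown group, si1, which entered the fit to share the estimate of spread and served as the reference for what moved in si2 but not in si1. The labels leave the group names unexplained, give no reagent sequence, and do not say whether replicates 1 and 2 were separate cultures. The p-values therefore set the difference between groups only against a spread between libraries of a group. It was pooled over NC, si1 and si2 and, for each gene, drawn toward a trend over all genes. Whether that spread includes differences between cultures is not known. FPKM scales the fragments of a gene by its length and by library depth. Those averaging 1 FPKM or more over NC and si2 were kept, 12314 of the 58735 genes in the table.

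KRT6A encodes a type II keratin, one of the intermediate filament proteins that stratified epithelia make during wounding and rapid growth. A small interfering RNA is loaded into an Argonaute protein, which cleaves messages that pair with the whole guide strand. The same complex can also lower messages that pair only with the bases near the 5′ end of the guide, the seed, as a microRNA does, mainly through sites in the 3′ untranslated region (3′ UTR).

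KRT6A (chr12:52487174-52493257, hg38) had 0 reads in each of the 4 libraries, which allows at most 0.0613 and 0.0583 FPKM in NC and 0.0649 and 0.0678 FPKM in si2, so the knockdown could not be checked from its own message. Libraries held 14948607 to 17401392 reads, and mitochondrially encoded genes took 7.82% to 8.73% of them. Of 5 tested epithelial markers, KRT7 and KRT19 were called lower and KRT18 and EPCAM higher, the last pair in 0 of the 4 fits that each omit 1 NC or si2 library. KRT7 was at 176 and 185 FPKM in NC and 111 and 112 in si2, KRT18 was at 45.2 and 49.5 in NC and 55.2 and 59.8 in si2, and TP63, a squamous transcription factor, was at 5.97 and 6.25 FPKM in NC and 12.8 and 10.9 in si2. KRT5, KRT14 and DSG3, which define squamous cells, were at or near 0, and the epithelial cadherin CDH1 stayed below 0.3 FPKM. Summed leukocyte, endothelial and neuroendocrine markers were each below 1.6 FPKM in each of the 4 libraries. RNA came from bulk cultures, so fewer cells making a message and less message per cell cannot be told apart.

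In si2, 3581 genes differed from NC, 29.1% of those tested, with 1686 higher (13.7%) and 1895 lower (15.4%), at a Benjamini-Hochberg adjusted p under 0.05 in limma. Changes were mostly modest, with a median absolute log2 fold change of 0.46 among the called genes on the log2(FPKM + 1) scale, against a median standard error (SE) of 0.101 over all genes. Past 2-fold, 155 genes fell (1.26%) and 78 rose (0.633%), so the large changes lay more often on the lower side. The si2 and NC libraries did not overlap for all 3581 called genes, while 69.4% of all genes tested had groups that did not overlap. With 1 library left out, the counts of higher and lower genes were 635 and 856 without NC replicate 1, 609 and 777 without NC replicate 2, 656 and 914 without si2 replicate 1, and 791 and 1099 without si2 replicate 2. In all 4 of these reduced fits 1077 of the genes were called again, 442 of them higher and 635 lower, and except where stated every gene described as changed here is among them.

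**Figure D1:**
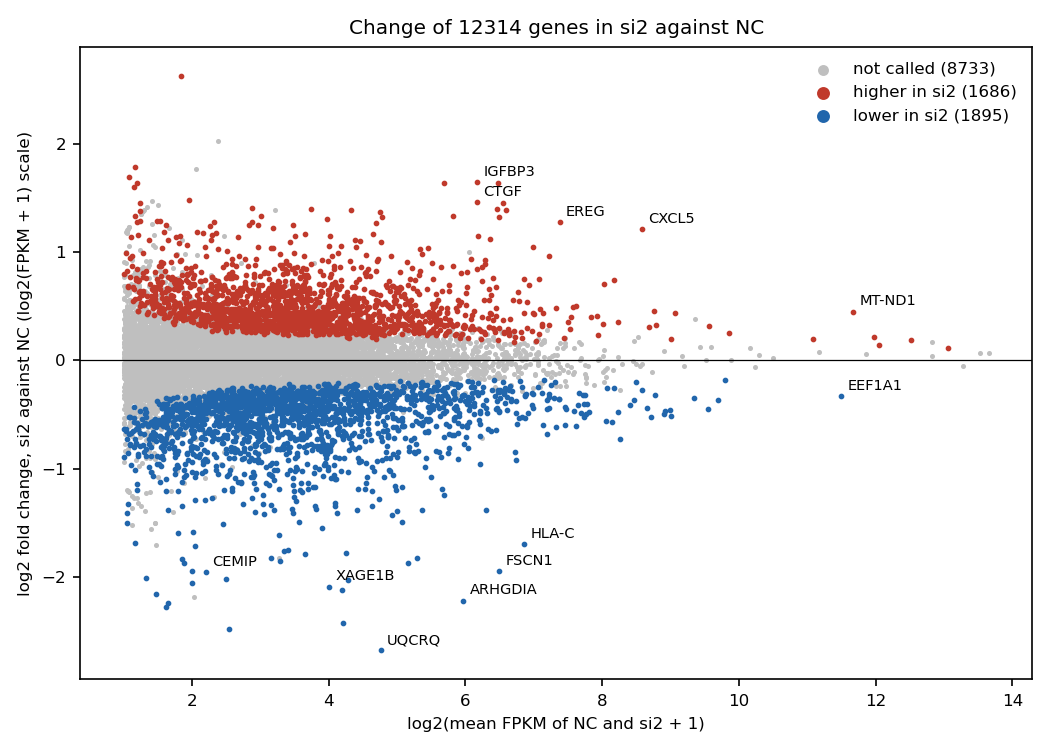
Each point is a gene, placed by its mean level in NC and si2 (x axis, log2 of FPKM + 1) and its log2 fold change in si2 against NC (y axis). The 1686 genes called higher are red, the 1895 called lower are blue and the rest are grey, and among called protein-coding genes the lower side reaches further, to −2.68 for UQCRQ against 1.65 for IGFBP3.

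The si2 libraries were also tested against si1, which shows where the level in si2 lay beyond that in si1. Of the called genes, 2233 (18.1% of those tested) also differed from si1 in the same direction, 994 higher (8.07%) and 1239 lower (10.1%). That count was 1038, 937, 971 and 1183 without NC replicate 1, NC replicate 2, si2 replicate 1 and si2 replicate 2. For si1 itself, 2725 genes (22.1%) differed from NC, 1130 higher (9.18%) and 1595 lower (13.0%). The first of these counts includes genes that moved the same way in si1 by less, such as TPM4 and CEMIP. Both groups were set against the same NC libraries, so their values are given side by side.

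Several of the 15 lowest protein-coding genes fell in si2 while si1 did not differ from NC at the threshold. UQCRQ (chr5:132866560-132868031), a small subunit of respiratory complex III, was at 41.7 and 50.1 FPKM in NC, 42.1 and 43.3 in si1, and 6.45 and 6.11 in si2. Both si2 libraries lay far below the other 4, and UQCRQ fell by 2.68 on the log2 scale (SE 0.094, adjusted p = 3.28e-05). ARHGDIA (chr17:81867721-81871406) encodes a GDP dissociation inhibitor of small GTPases. Its level was 99.5 and 105 FPKM in NC, 103 and 92.8 in si1, and 22.2 and 20.3 in si2, a fall by 2.22 (SE 0.0771, adjusted p = 3.28e-05). FSCN1 (chr7:5592823-5606655), the fascin that bundles actin filaments in filopodia, was at 142 FPKM in both NC libraries, 159 and 149 in si1, and 37.4 and 34.8 in si2. FSCN1 fell by 1.95 (SE 0.0626, adjusted p = 3.28e-05) and differed from si1 by −2.06 (adjusted p = 1.17e-05).

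LAMP1, a main glycoprotein of the lysosomal membrane, was at 54.6 and 56.3 FPKM in NC, 54.2 and 51.1 in si1, and 13.7 and 15.2 in si2. HLA-C, a class I histocompatibility heavy chain, was at 175 and 178 FPKM in NC, 197 and 186 in si1, and 52.7 and 54.3 in si2. HLA-C fell by 1.70 (SE 0.0554, adjusted p = 3.28e-05), though it shares sequence with other class I genes, and how reads common to such genes were counted is not given in the sources used here. MYD88, the adaptor that carries signals from Toll-like and interleukin-1 receptors, was at 14.2 and 15.3 FPKM in NC and 3.36 and 3.95 in si2. TUBB6, a beta tubulin, was at 28.2 and 28.9 FPKM in NC and 8.06 and 7.12 in si2. TRAPPC1, a subunit of the complex that tethers transport vesicles, was at 59.3 and 60.4 FPKM in NC, 46 and 52.9 in si1, and 13.5 and 19.3 in si2. In each of these genes the si2 libraries lay below both other groups without overlap, and the difference from si1 passed the same test.

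A second kind of fall was shared with si1. CPA4, a secreted carboxypeptidase, was at 8.03 and 8.16 FPKM in NC, 0.958 and 0.418 in si1, and 1.41 and 1.09 in si2. SLC35F3, a solute carrier, was at 19.2 and 17.9 FPKM in NC, 5.15 and 5.71 in si1, and 4.89 and 4.43 in si2. Neither differed between si2 and si1 at the threshold (CPA4 by 0.43, SE 0.171, adjusted p = 0.0887, and SLC35F3 by −0.18, SE 0.0862, adjusted p = 0.136). PXDN (peroxidasin, which crosslinks collagen IV), TMEM109, CLDN11 (a claudin of tight junctions) and CEMIP, which takes part in hyaluronan breakdown, fell in both groups and lower in si2. CEMIP, for example, was at 6.19 and 6.44 FPKM in NC, 3.56 and 3.26 in si1, and 0.922 and 0.833 in si2. XAGE1B, a cancer and testis antigen with near-identical copies on chromosome X, stood among the 15 lowest at −2.09 (SE 0.596, adjusted p = 0.0382), but its NC libraries read 42.1 and 9.66 FPKM and the call was kept in 1 of the 4 reduced fits.

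The largest rise among called protein-coding genes was in IGFBP3, a secreted protein. IGFBP3 (chr7:45912245-45921874), which binds insulin-like growth factors, was at 33.9 and 33.4 FPKM in NC, 49.1 and 50 in si1, and 106 and 109 in si2, a rise of 1.65 (SE 0.0556, adjusted p = 3.28e-05). CXCL1, a chemokine for neutrophils, was at 43.4 and 40.9 FPKM in NC, 70.6 and 81.9 in si1, and 131 and 137 in si2. Its neighbour CXCL5, a chemokine of the same family, was at 232 and 227 FPKM in NC, 208 and 239 in si1, and 546 and 523 in si2. For CXCL5 the si1 libraries fell on both sides of NC, and the si2 libraries lay above all 4. The epidermal growth factor receptor ligand AREG was at 33.3 and 29.1 FPKM in NC, 19.7 and 22.3 in si1, and 81 and 78.4 in si2. TIMP3, an inhibitor of matrix metalloproteinases, was at 51.2 and 54 FPKM in NC, 59.1 and 62.5 in si1, and 141 and 137 in si2. SEMA6B, a guidance protein of the semaphorin family, was at 8.37 and 7.68 FPKM in NC, 9.41 and 6.9 in si1, and 20.4 and 22.5 in si2.

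Other large rises were shared with si1. TPM4, a tropomyosin that lines actin filaments, was at 25 and 23 FPKM in NC, 54.1 and 56.6 in si1, and 77 and 77.1 in si2. CYP1B1, a cytochrome P450, was at 49.6 and 48.5 FPKM in NC, 109 and 119 in si1, and 136 and 135 in si2. GANAB, the catalytic subunit of glucosidase II in the endoplasmic reticulum, was at 49.7 and 51.5 FPKM in NC, 113 and 104 in si1, and 126 and 130 in si2. In these genes si1 lay between NC and si2. TNFRSF11B, the decoy receptor osteoprotegerin, rose by 1.41 (SE 0.0776, adjusted p = 0.000142) from 2.92 and 3.12 FPKM in NC to 9.99 and 9.36 in si2.

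**Figure D2:**
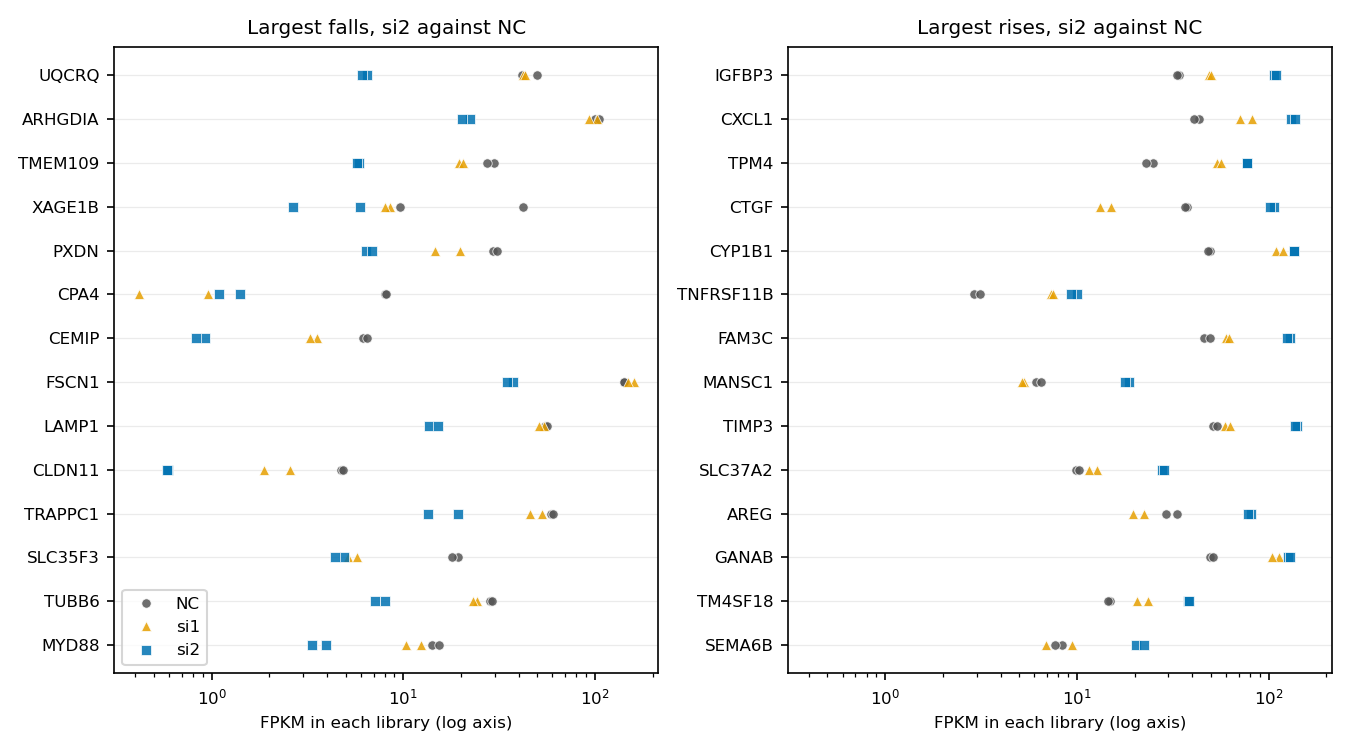
FPKM in each library (log axis) of the protein-coding genes described among the largest falls (left) and the largest rises (right) in si2 against NC, with 2 points per group. The 2 si2 libraries (squares) lie beyond both NC libraries (circles) for every gene shown, and si1 (triangles) lies beside NC for UQCRQ, ARHGDIA, FSCN1 and LAMP1, beside si2 for SLC35F3, and on the far side of NC from si2 for CTGF and AREG.

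In absolute level the largest falls among called protein-coding genes ran from 647 FPKM for EEF1A1 to 123 FPKM for HLA-C, with FLNA, ACTG1, ENO1, EEF2, RPL13A, RPS12, LGALS1 and UCHL1 between them. The calls of FLNA, an actin crosslinker, and RPS12, a ribosomal protein, were kept in 0 of the 4 reduced fits. EEF1A1, the elongation factor that brings tRNA to the ribosome, was at 3228 and 3180 FPKM in NC and 2597 and 2516 in si2, although this call held in only 1 of the 4 reduced fits. ENO1, a glycolytic enolase, was at 601 and 609 FPKM in NC, 672 and 656 in si1, and 424 and 428 in si2, a fall by 0.51 (SE 0.0419, adjusted p = 0.000472). LGALS1, a galectin, fell by 0.73 (SE 0.0465, adjusted p = 0.000184) from 374 and 389 FPKM in NC to 229 in both si2 libraries. On the other side, the mitochondrially encoded complex I subunit MT-ND1 was at 2826 and 2698 FPKM in NC and 3780 and 3765 in si2, a rise of 0.45 (SE 0.0379, adjusted p = 0.00048). MT-ND2, MT-ND4 and MT-CYB were also among the largest rises in FPKM, but their calls held in 1, 0 and 0 of the 4 fits, and MT-CYB turned to 0 with quantile normalization (adjusted p = 1). RAB39B, the Rab GTPase of the series title, was at 1.9 and 2.63 FPKM in NC and 1.3 and 0.755 in si2, and its fall by 0.69 (SE 0.204, adjusted p = 0.0424) was kept in 0 of the 4 reduced fits.

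Of the 15 lowest protein-coding genes, 10 carried the 7 bases GTCTGCA in an annotated 3′ UTR. The sequence was picked in an earlier analysis of these same data, so the values of its carriers are given as a description without a test. The sites of 7 of these genes are printed to show the sequence and its surroundings in genes with deep falls. XAGE1B, PXDN, CPA4, TRAPPC1 and SLC35F3, also among the 15 lowest, do not carry it. They come from GENCODE 29 transcripts on GRCh38 (hg38), each on the strand of its gene, 5′ to 3′, with the 7 bases in capitals. UQCRQ holds them at chr5:132867639-132867645 and chr5:132867681-132867687, ARHGDIA at chr17:81868313-81868319, TMEM109 at chr11:60923038-60923044 and chr11:60923162-60923168, CEMIP at chr15:80949694-80949700, FSCN1 at chr7:5606643-5606649, LAMP1 at chr13:113323191-113323197 and MYD88 at chr3:38141425-38141431. ARHGDIA lies on the minus strand and the others lie on the plus strand.
UQCRQ, site nearer the stop codon: ctggaagaggaGTCTGCAttgtagtgtct
UQCRQ, the other site: aacttcctatgGTCTGCActgttgtgata
ARHGDIA: taactccctgtGTCTGCAtgagcatgtgg
TMEM109, site nearer the stop codon: cccgcctccttGTCTGCAcaactgcatgc
TMEM109, the other site: cccttcacgtgGTCTGCAgagagcagggt
CEMIP: tagcttgagggGTCTGCAgtccagtaggg
FSCN1: aaaataactcaGTCTGCAgcccca
LAMP1: gcgtctctaatGTCTGCAgctcaagggct
MYD88: ttcacagacacGTCTGCAgcagctggaca
The bases around the capitals differ from site to site. FSCN1 has the site at the end of its 3′ UTR, and UQCRQ has both of its sites in the first part of a 3′ UTR of 449 bases. CLDN11 and TUBB6 are also among the carriers.

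Of 10720 tested genes with an annotated 3′ UTR, 1439 carried GTCTGCA there. Among carriers 442 were lower in si2 (30.7%) and 112 higher (7.78%), beside 14.3% lower and 15.3% higher among the 9281 genes without it. The median log2 fold change was −0.14 in carriers and 0.02 in the others, while in si1 the medians were −0.04 and −0.01. Genes with 1 site had a median of −0.13 and those with 2 sites −0.23. The 30 genes with 3 or more sites had a median of −0.14, with long 3′ UTRs (median 8516 bases). SMIM14, a small membrane protein, has 3 sites and was at 13.5 FPKM in both NC libraries, 16.6 and 20 in si1, and 3.75 in both si2 libraries. Carriers of the sequence only outside the 3′ UTR, 1479 genes, had a median of −0.05, with 21.1% lower and 8.79% higher. Genes with TCTGCA but without GTCTGCA, 3560 in number, had a median of 0.03, with 13.3% lower and 15.3% higher.

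Carriers were called lower more often than other genes in each of 4 classes of 3′ UTR length. Under 1000 bases, 47.5% of 179 carriers were lower (median −0.32), beside 17.8% of other genes (median −0.03). From 1000 to 2000 bases the shares were 38.8% and 13.4%, and from 2000 to 4000 bases 29.9% and 10.6%. Over 4000 bases, 20.3% of 472 carriers and 9.78% of the others were lower. Length moved with the change in genes without the sequence too, whose median ran from −0.03 under 1000 bases to 0.09 over 4000. The carriers' medians in single pairs of 1 si2 and 1 NC library ran from −0.15 to −0.125.

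**Figure D3:**
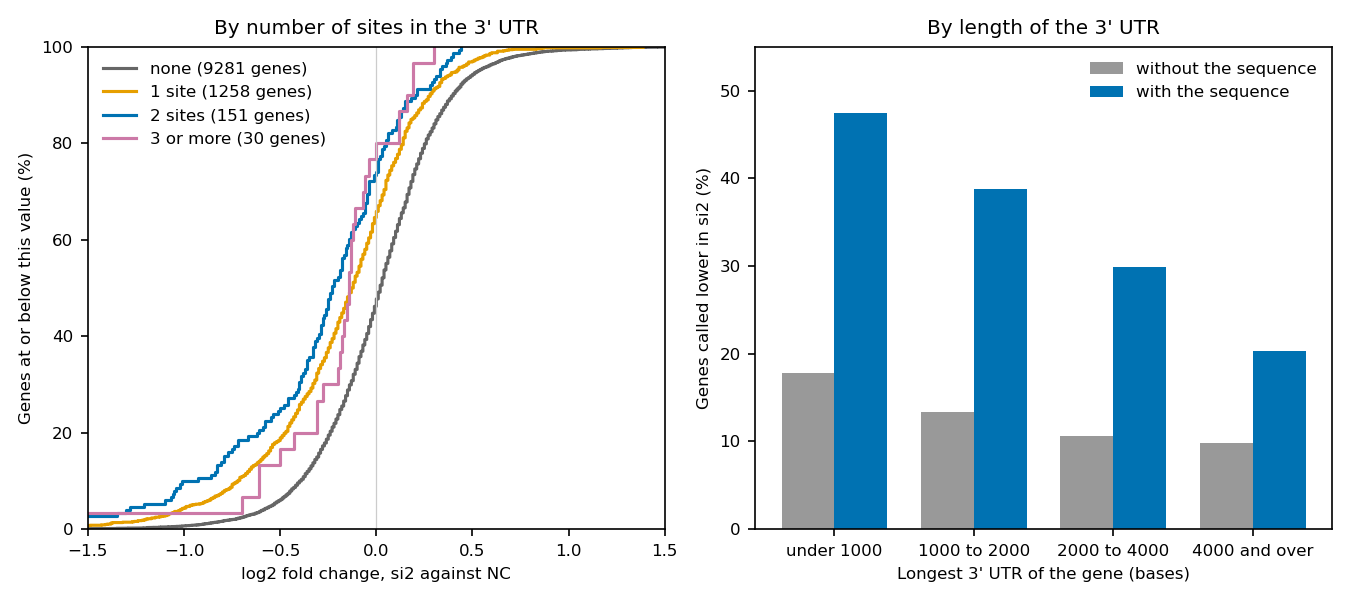
Left, share of genes (y axis, %) at or below each log2 fold change in si2 against NC (x axis), by the number of sites of the 7-base sequence in the 3′ UTR. Right, share of genes called lower in si2 (y axis, %) with and without the sequence, in 4 classes of 3′ UTR length (x axis, bases). The curves of genes with 1 or 2 sites run left of the curve without sites, and carriers exceed the other genes in each length class, at 47.5% against 17.8% in the shortest.

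The first 6 of these bases, GTCTGC, are by construction at least as frequent as the 7. Looking in the longest 3′ UTR of each gene, a choice made after seeing the data, GTCTGC stood in 80% of the lowest 100 called protein-coding genes, in 13% of the highest 100, and in 29.7% of all genes with a 3′ UTR. GTCTGCA in any 3′ UTR stood in 54% of the same lowest 100, 3% of the highest 100 and 13.4% of all, and since these shares count any 3′ UTR and those of the 6 bases the longest, they are not compared. PXDN, TRAPPC1, SLC35F3 and HLA-C carry the 6 bases without the seventh. With the base that follows, the median was −0.15 for GTCTGCA, −0.11 for GTCTGCC, −0.12 for GTCTGCG and −0.09 for GTCTGCT. With the base before, it was −0.18 for CGTCTGC, −0.13 for TGTCTGC, −0.10 for AGTCTGC and −0.08 for GGTCTGC. A gene was counted in each class that it held. The classes therefore overlap, and these medians do not isolate the part of any single flanking base. Ranked by mean log2 fold change among 16173 sequences of 7 bases with at least 50 carriers, CGTCTGC was the lowest and GTCTGCA was next. Several CG-rich sequences with few carriers, such as TCGCGGC with 72, followed close behind.

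Some carriers of GTCTGCA rose. STX12, a syntaxin of endosomes, was at 6.78 and 6.75 FPKM in NC, 13.6 and 16.3 in si1, and 17 and 15.9 in si2. INHBA, the activin A subunit, was at 4.3 and 3.69 FPKM in NC, 1.85 and 1.64 in si1, and 8.27 and 7.97 in si2. CLCF1, a cytokine of the interleukin-6 family, rose by 0.84 (SE 0.0971, adjusted p = 0.00147). TIMP3 also has 1 site.

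If GTCTGCA paired with bases 2 to 8 of a guide, those bases would read UGCAGAC. In the longest 3′ UTR, genes with TCTGCA but without GTCTGC had a median of 0.05, with 10.4% lower. Genes with GTCTGC had a median of −0.10, with 27.2% lower. Which bases of a guide would pair with the sequence was not tested. Of 2545 human mature microRNAs in RefSeq (GRCh38.p14), 1 has UGCAGAC at bases 2 to 8. Its sequence is printed with these bases in capitals as an example of that frame only.
hsa-miR-1273h-3p: cUGCAGACucgaccucccaggc
Its gene, MIR1273H, had 0 reads in all libraries, although libraries of this kind need not hold short RNAs. The KRT6A transcript ENST00000330722.6 contains no GTCTGCA, and its reverse complement occurs once, at position 995 of 2310, outside the 3′ UTR. The shorter GTCTGC, and CGTCTGC, were not looked for in this transcript. The sequences of the si2 reagent are not in the labels, so whether si2 contains these bases was not tested.

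Across pathways, 58 gene lists other than those on keratins and autophagy were counted. They hold 1842 tested genes, of which 307 were higher (16.7%) and 311 lower (16.9%), close to the shares of 13.7% and 15.4% for all genes. Counts below give members higher and lower, followed by the range over the 4 reduced fits. The median log2 fold change of all genes was 0.005.

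Actin genes were called lower more often than higher. Of 50 actin and myosin genes, 12 were lower and 5 higher (5 to 8 and 3 to 4, median 0.00). PXN, the adhesion scaffold paxillin, fell by 1.01 (SE 0.0709, adjusted p = 0.000274) and ZYX (zyxin) fell by 0.77 (SE 0.0659, adjusted p = 0.000502), while ENAH and CTTN, which promote actin assembly, rose by 0.57 and 0.45.

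Focal adhesion genes were lower more often than higher, 8 against 2 of 25 (5 to 6 and 0 to 1, median −0.12). CAVIN1, a coat protein of caveolae, was at 87.1 and 97.5 FPKM in NC, 107 and 102 in si1, and 65 and 66.1 in si2. CAV2, a caveolin, fell by 0.58, PARVB, a parvin that binds integrin-linked kinase, fell by 0.58, and TRIP6, a LIM protein of adhesions, fell by 0.52. Tubulins and their motors showed 13 lower and 4 higher of 40 (4 to 8 and 1 to 4, median −0.08). MAPRE3, which tracks growing microtubule ends, was at 7.76 and 8.27 FPKM in NC and 3.44 and 2.88 in si2. CLIP1, another plus-end protein, rose by 0.56. In si1 the tubulin list had 9 members lower and 5 higher. Of the chaperonin CCT and prefoldin, which fold actin and tubulin, 5 of 14 were lower and 1 higher (2 and 1 in each such fit), with PFDN1 falling by 0.75 (SE 0.0954, adjusted p = 0.00208) and CCT5 rising by 0.40 (SE 0.0551, adjusted p = 0.00287).

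Membrane traffic lists were mixed, and some stood near the shares of all genes, 13.7% higher and 15.4% lower. The coat and cargo receptor list had 13.6% higher and 11.4% lower, and entry to the endoplasmic reticulum 17.4% in each direction. Of 32 genes for clathrin, its adaptors and dynamin, 11 were lower and 3 higher (4 to 5 and 0, median −0.10). AP1B1, a large subunit of the AP-1 adaptor, was at 24.2 and 23.8 FPKM in NC and 12.7 and 13.5 in si2, and BIN1, which bends membranes, fell by 0.69. None of 18 tetraspanins was called higher and 5 were lower (0 and 0 to 3, median −0.14), and the call with the lowest adjusted p, CD82 (0.00676 in limma), was kept in 3 of the 4 fits and lost without NC replicate 2. For entry to the endoplasmic reticulum, 4 of 23 were higher and 4 lower (0 to 2 and 2 to 3, median 0.10). SSR3, a subunit of the translocon-associated complex, was at 60.3 and 57.1 FPKM in NC, 45.1 and 51.3 in si1, and 21.5 and 22.4 in si2. Of 44 genes for COPII and COPI coats and cargo receptors, 6 were higher and 5 lower (1 to 2 and 4 to 5, median 0.03), with the KDEL receptors KDELR1 and KDELR2 at 0.41 and −0.53. SURF4, a cargo receptor for export from the endoplasmic reticulum, was at 97.1 FPKM in both NC libraries, 99.6 and 102 in si1, and 47.8 and 51.3 in si2. For N-glycan assembly the balance ran the other way, with 10 higher and 5 lower of 33 (2 to 3 and 2 to 3, median 0.10). RPN2, a subunit of the oligosaccharyl transferase, was at 199 and 192 FPKM in NC and 260 and 256 in si2, with si1 below NC at a mean of 139.

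Matrix genes changed often and in both directions, with 34.4% of the list higher and 21.9% lower, beside 13.7% and 15.4% of all genes. Of 32 matricellular and matrix glycoproteins, 11 were higher (34.4%) and 7 lower (5 to 6 and 5 to 6, median 0.07). CTGF (chr6:131948176-131951373), a matricellular protein, was at 37.7 and 36.8 FPKM in NC, 13.2 and 15.1 in si1, and 106 and 102 in si2. The si2 libraries lay above NC and the si1 libraries below it, and the difference between si2 and si1 was 2.80 (SE 0.0765, adjusted p = 9.18e-06). TGM2, a transglutaminase that crosslinks matrix proteins, was at 31 and 30.6 FPKM in NC, 17.9 and 17.3 in si1, and 58.5 and 58.1 in si2. THBS1, thrombospondin 1, was at 99.9 and 99.4 FPKM in NC and 167 and 170 in si2. On the lower side, FBLN2, a fibulin of basement membranes, fell by 1.27 (SE 0.101, adjusted p = 0.000425), and SPOCK1, a testican, fell by 1.09 in si2 and by 1.36 in si1. Fibroblast and smooth muscle markers summed to 17.5 and 17.7 FPKM in NC and 23.5 and 23.6 in si2, nearly all from COL1A1, while COL1A2 was at 0 in each library. COL1A1 was at 15.2 and 15.5 FPKM in NC, 22.5 and 18.2 in si1, and 20.8 in both si2 libraries. Its call in si2 did not hold in any of the reduced fits. What part, if any, the higher sum of these markers has in the matrix changes was not tested.

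Proteoglycan genes were split, with 10 higher and 11 lower of 38 (8 to 9 and 5 to 6, median 0.00). The cell surface proteoglycan SDC4 was at 44.8 and 43.7 FPKM in NC, 36.9 and 37.3 in si1, and 96.6 and 102 in si2, and HAS2, a hyaluronan synthase, was at 0.928 and 0.707 FPKM in NC and 3.85 and 2.83 in si2. CHPF, which elongates chondroitin chains, was at 66.4 and 72.3 FPKM in NC and 31.2 and 28.5 in si2. B3GALT6, which builds the linker that joins the chains to protein, fell by 0.97 (SE 0.113, adjusted p = 0.00149). EXTL3, which acts in heparan sulfate chain synthesis, rose by 0.61, so enzymes stood on both sides. The list had 26.3% higher and 28.9% lower, beside 13.7% and 15.4% of all genes. In si1, 7 members were higher and 9 lower.

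Of 24 growth factors and receptor kinases, 11 were higher (45.8%) and 6 lower (5 to 7 and 3 to 4, median 0.13). Lower calls made up 25.0% of this list, and all genes tested had 13.7% higher and 15.4% lower. ROR1, a receptor for Wnt5a, was at 7.57 and 7.89 FPKM in NC, 4.86 and 5.46 in si1, and 14.4 and 14.6 in si2. PDGFC, a platelet-derived growth factor, rose by 0.61, and the hepatocyte growth factor receptor MET fell by 0.60, from 48.4 and 48.7 FPKM to 32.7 and 30.6. Ephrins, semaphorins and their receptors showed 9 higher and 8 lower of 29 (7 to 8 and 2 to 4, median 0.04). Their shares were 31.0% higher and 27.6% lower. SEMA3C was at 9.19 and 9.34 FPKM in NC and 18.5 and 18.7 in si2, and its receptor component NRP2 rose by 0.84 (SE 0.0953, adjusted p = 0.00139).

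In complement and coagulation, 7 of 21 were higher and 2 lower (3 to 4 and 0 to 1, median −0.04). The complement, Notch and Wnt lists had 33.3%, 29.2% and 25.7% higher and 9.52%, 4.17% and 8.57% lower. All genes tested had 13.7% higher and 15.4% lower. TFPI and TFPI2, both inhibitors of clotting proteases, rose by 0.67 and 0.86, with TFPI2 at 14.2 and 15.5 FPKM in NC, 8.53 and 8.7 in si1, and 28 and 27.4 in si2. Notch genes showed 7 higher and 1 lower of 24 (2 to 4 and 0 to 1, median 0.11), and the ligand JAG1 was at 17.4 and 17.5 FPKM in NC, 7.89 and 7.96 in si1, and 25.5 and 24.7 in si2. Wnt genes showed 9 higher and 3 lower of 35 (4 to 6 and 1 to 2, median 0.12). TCF7L2, a transcription factor of the pathway, was at 3.2 and 3.42 FPKM in NC and 5.52 and 5.54 in si2, and WLS, which escorts Wnt ligands to the surface, rose by 0.50. DKK1, a secreted Wnt antagonist, was at 6.21 and 4.8 FPKM in NC, 1.75 and 2.17 in si1, and 1.75 and 1.56 in si2. The Frizzled receptors FZD1, FZD6 and FZD7 were also called higher, each in 2 of the 4 reduced fits, as were the co-receptor LRP6 in 3 and the ligand WNT7B in 1.

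Immediate early genes were higher in 10 of 24 and lower in 4 (3 to 5 and 2 to 4, median 0.09). The immediate early, glucocorticoid and circadian lists had 41.7%, 30.8% and 26.3% higher and 16.7%, 0% and 15.8% lower. All genes tested had 13.7% higher and 15.4% lower. TRIB1, a pseudokinase, was at 6.19 and 6.15 FPKM in NC and 11.7 and 13.5 in si2. PLAUR, the urokinase receptor, rose by 0.43 in si2 and fell by 1.03 in si1, while HBEGF fell by 0.63 in si2 and by 1.42 in si1. Of 13 genes known to rise with glucocorticoids, 4 were higher and 0 lower, each of the 4 kept in all 4 reduced fits (median 0.16). CEBPD was at 13.9 and 15.6 FPKM in NC, 57.4 and 58.8 in si1, and 28.1 and 31.5 in si2, so si2 lay between NC and si1. ERRFI1, a feedback inhibitor of the epidermal growth factor receptor, rose by 0.70 (SE 0.0533, adjusted p = 0.00036). Other members of the glucocorticoid list were not called, among them TSC22D3 at 0.16, SGK1 at 0.18 and KLF9 at 0.17. PER1 at −0.26 and MT1X at −0.58 lay on the lower side and were not called either. In the circadian clock, 5 of 19 were higher and 3 lower (1 to 3 and 0 to 1, median 0.16), and the repressor NR1D1 was at 8.79 and 10.3 FPKM in NC and 16.8 and 18.8 in si2.

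Only some metabolic lists stood apart from the shares of all genes, 13.7% higher and 15.4% lower. The fatty acid list was near them with 14.6% higher and 12.2% lower, and the iron list had 16.1% in each direction. The sphingolipid list had more higher than lower calls, but its median of −0.02 showed no shift of the list to the higher side. Sphingolipid genes showed 7 higher and 3 lower of 30 (3 to 4 and 2 to 3, median −0.02), and fatty acid uptake and oxidation 6 higher and 5 lower of 41 (0 to 1 and 1 to 2, median 0.04). Triglyceride and phospholipid synthesis showed 11 lower and 4 higher of 37 (7 to 9 and 1 to 2, median −0.13). This list had 29.7% lower and 10.8% higher in si2, and in si1 it had 10 members lower and 3 higher. SELENOI, which makes phosphatidylethanolamine, was at 16.2 and 15.9 FPKM in NC, 10.8 and 11.3 in si1, and 6.37 and 6.3 in si2. CDS1, which makes CDP-diacylglycerol, was at 3.88 and 3.93 FPKM in NC and 1.49 and 1.39 in si2, and the ethanolamine kinase ETNK1 fell by 0.74. Pentose phosphate, hexosamine and glycogen genes showed 9 lower and 3 higher of 31 (5 to 7 and 0 to 1, median −0.16). GNPNAT1, an enzyme of the hexosamine pathway, was at 14.3 and 12.6 FPKM in NC and 5.87 and 6.5 in si2, and the galactokinase GALK1 fell by 0.53. Of 29 peroxide and thiol enzymes, 7 were lower and 2 higher (3 to 6 and 1, median −0.02), with the mitochondrial thioredoxin TXN2 at 21.1 and 22.4 FPKM in NC and 10.2 and 9.58 in si2. PRDX4, a peroxiredoxin of the endoplasmic reticulum, rose by 0.67. Of 31 genes of iron, heme and ferroptosis, 5 were higher and 5 lower (2 to 3 and 2 to 3, median −0.11), and the cystine carrier SLC7A11 rose by 0.63 and the heme oxygenase HMOX1 fell by 0.69.

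Respiratory chain genes showed no common direction. Both lists had 8.82% higher, beside 13.7% of all genes. Lower calls made up 0% for complex I and 20.6% for the other list, beside 15.4% of all genes. Of 34 nuclear complex I subunits, 3 were higher and 0 lower (1 to 2 and 0, median 0.05), and of 34 subunits of complexes III and IV and ATP synthase, 7 were lower and 3 higher (3 to 5 and 0 to 1, median −0.08). UQCRQ stood far from the other members of its list.

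Nuclear lists stood partly near the shares of all genes, 13.7% higher and 15.4% lower. The polymerase, remodeller and lamina lists had 17.5%, 17.1% and 16.7% higher. For lower calls, the lamina and nuclear pore lists had 16.7% and 15.7%. In si1 the nuclear pore list had 14 members lower and 1 higher. Further from those shares, the polymerase and remodeller lists had 4.76% and 4.88% lower and ribosome biogenesis 22.7% lower. The acetylation list had 23.3% higher and 3.33% lower. RNA polymerase II, its general factors and Mediator showed 11 higher and 3 lower of 63 (3 to 5 and 1, median 0.08). MED30, a Mediator subunit, was at 6.44 and 6.56 FPKM in NC, 6.24 and 6.61 in si1, and 12.9 and 12.8 in si2, and GTF2H1 rose by 0.60 while MED16 fell by 0.68. Among acetylases, deacetylases and bromodomain readers 7 of 30 were higher and 1 lower (3 to 4 and 0, median 0.03), and among chromatin remodellers 7 of 41 were higher and 2 lower (4 to 5 and 1 to 2, median 0.09). HDAC1 was at 31.8 and 34.7 FPKM in NC, 35.3 and 33.1 in si1, and 58.5 and 54.5 in si2. In the nuclear lamina and LINC list, 3 of 18 were higher and 3 lower (0 and 2, median −0.02). SUN2 and LEMD3 fell by 1.15 and 0.82, while the higher calls, SYNE2, TOR1A and SUN1, were kept in 0 of the 4 reduced fits. Of 51 nuclear pore and karyopherin genes, 8 were lower and 4 higher (4 to 5 and 0, median 0.01), and the pore subunit NUP160 was at 15.3 and 13.6 FPKM in NC and 6.56 and 6.82 in si2. Nucleolar ribosome biogenesis showed 10 lower and 3 higher of 44 (5 to 6 and 1, median −0.07), led by RRP1B at 14.7 and 15.8 FPKM in NC and 5.5 and 5.69 in si2.

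Of 49 deubiquitinases, 12 were lower and 5 higher (6 to 8 and 0 to 1, median 0.04). The deubiquitinase, PI3K and apoptosis lists had 24.5%, 21.3% and 25.0% lower and 10.2%, 8.51% and 14.3% higher. The m6A list had 5.26% lower and 18.4% higher. All genes tested had 15.4% lower and 13.7% higher. In si1 the PI3K list had 7 members lower and 2 higher. USP22, the deubiquitinase of the SAGA complex, was at 32 and 30.3 FPKM in NC, 40 and 34.4 in si1, and 14 and 13.5 in si2, and USP10 fell by 1.04 (SE 0.0867, adjusted p = 0.000472). PI3K, AKT and mTOR genes showed 10 lower and 4 higher of 47 (3 to 8 and 1 to 2, median 0.01), with the S6 kinase RPS6KB2 falling by 1.08 and RICTOR, a core subunit of mTOR complex 2, rising by 0.62. Of 28 genes of apoptosis, 7 were lower and 4 higher (5 to 6 and 2, median −0.04). PARP1, a DNA damage sensor cleaved by caspases, was at 36.2 and 38.5 FPKM in NC and 22.6 and 22.1 in si2. Of 38 genes of m6A marking and polyadenylation, 7 were higher and 2 lower (0 to 2 and 2, median 0.05). The lower members, the m6A demethylases ALKBH5 and FTO, fell by 0.78 and 0.61, and CSTF3, a cleavage factor subunit, was 0.49 higher in a call kept in 3 of the 4 reduced fits.

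Genes of the RNA interference machinery were called lower more often than higher, while all genes tested had 15.4% lower and 13.7% higher. Of 17 tested genes, 6 were lower (35.3%) and 1 higher (2 to 3 and 0, median −0.22). DICER1, which cuts hairpins into microRNAs, was at 12.9 and 12.8 FPKM in NC, 13.3 and 12.9 in si1, and 7.49 and 7.34 in si2. SND1, a nuclease of the same pathway, was at 31.9 and 33.5 FPKM in NC, 36.4 and 34 in si1, and 20.1 and 20.8 in si2. Both si2 libraries lay below the other 4 for each gene, and both genes carry GTCTGCA. Of the 17 genes, 6 carry it and 3 of these were lower, while AGO3, with 2 sites, was not called. TARBP2 and PRKRA have 0 sites and were called lower, each kept in 1 of the 4 reduced fits. AGO2, the slicing Argonaute, was at 10.8 and 10.7 FPKM in NC and 11 and 10.5 in si2, a difference of 0.01 (SE 0.0984, adjusted p = 0.968).

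Protein-coding genes made up 10748 of the genes tested and carried most of the calls, at 14.3% higher and 16.5% lower. Long non-coding RNAs of the lincRNA class showed 10.2% higher and 10.5% lower of 305, and antisense genes 10.9% higher and 5.10% lower of 294. RN7SL2, a copy of the RNA of the signal recognition particle, was at 29.7 and 30.6 FPKM in NC, 21 and 19.9 in si1, and 3.8 and 5.95 in si2, which is 149 and 161 reads in NC and 18 and 27 in si2. It has near-identical copies, so how its reads were assigned bears on the value. The mitochondrial tRNA gene MT-TM was at 13 and 20 reads in NC and 35 and 44 in si2. The other extremes among named small RNA genes rested on at most 41 reads in any of the 4 libraries.

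**Figure D4:**
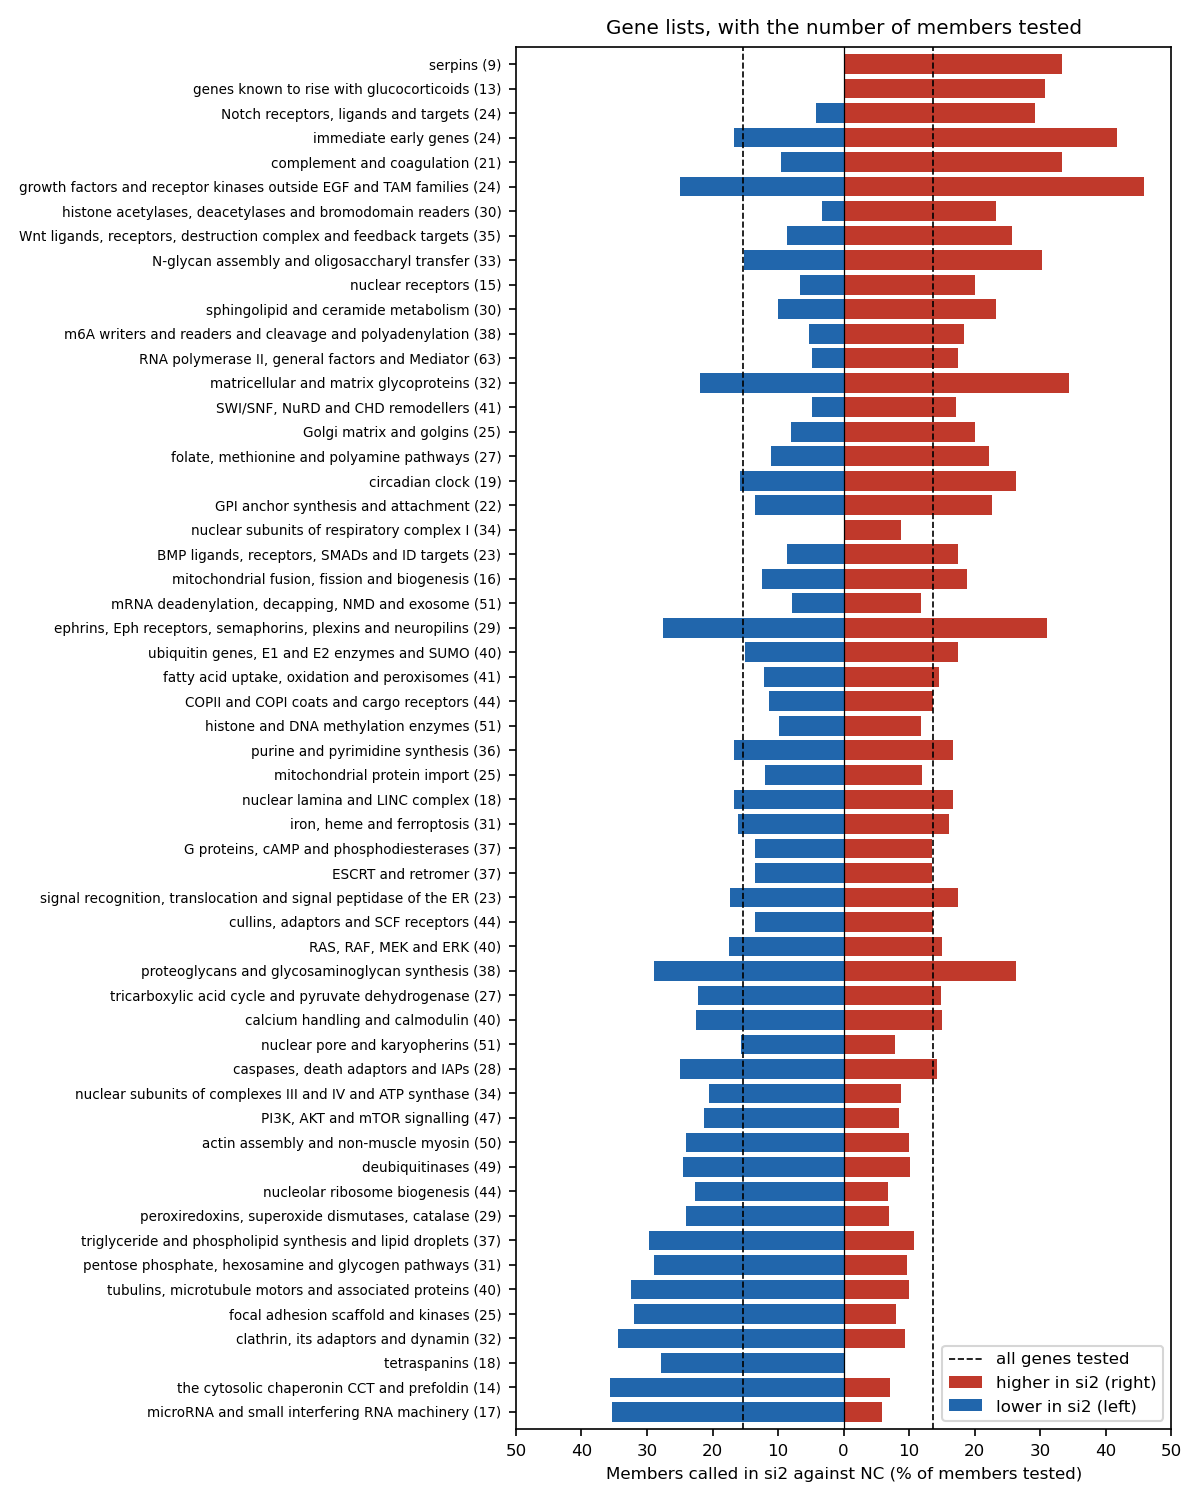
Share of tested members (x axis, %) called higher (red, to the right) or lower (blue, to the left) in si2 against NC for the gene lists, with the number tested in brackets and the list named on the y axis. Dashed lines mark the shares among all genes tested, 13.7% higher and 15.4% lower, and the growth factor list reaches furthest to the right at 45.8%.

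Among 375 genes (3.05% of those tested) si2 and si1 moved in opposite directions from NC. Protein-coding genes with large differences between si2 and si1, chosen after their values were seen, include several secreted or surface proteins beside CTGF. EREG, a second ligand of the epidermal growth factor receptor, was at 97.5 and 94.8 FPKM in NC, 36.6 and 40 in si1, and 238 and 231 in si2. F2RL1, a receptor activated by proteases, was at 27.3 and 25.4 FPKM in NC, 6 and 6.01 in si1, and 45.1 and 41.6 in si2. IGFBP1, a binding protein for insulin-like growth factors, was at 5.83 and 5.92 FPKM in NC, 1.55 and 1.57 in si1, and 12.7 and 14.6 in si2. All 3 rose in si2 and fell in si1, as did the secreted pentraxin PTX3.

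**Figure D5:**
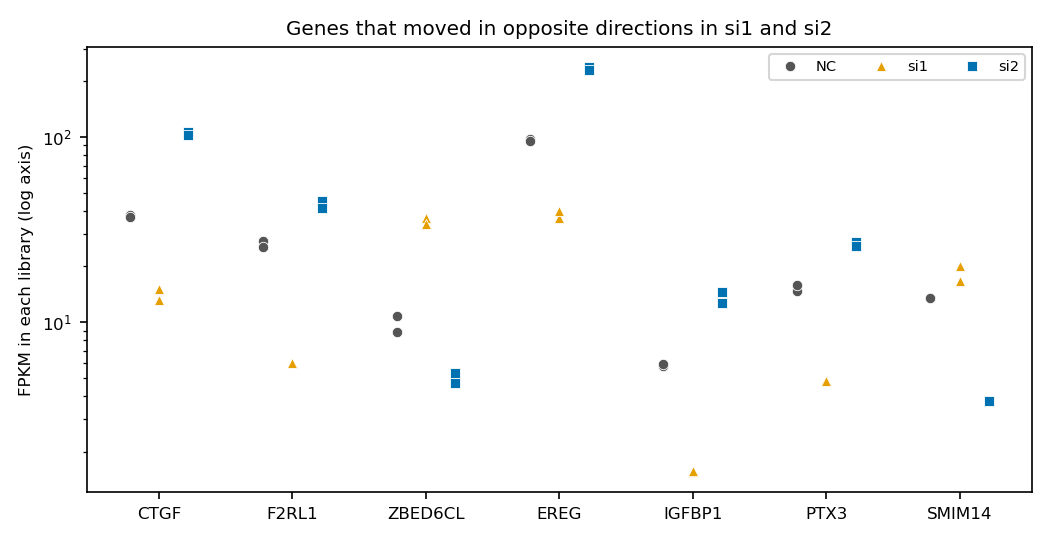
FPKM in each library (y axis, log scale) for 7 genes that moved in opposite directions from NC in si1 and si2. CTGF, F2RL1, EREG, IGFBP1 and PTX3 are highest in si2 (squares) and lowest in si1 (triangles), while ZBED6CL and SMIM14 are lowest in si2.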

How the data were processed

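The authors deposited 1 table of FPKM for 6 libraries. The submitters' processing notes name hg38 as the build, while aligner, counter and strand setting are not given in the sources used here. Each of the 58735 genes has the coordinates of GENCODE 29. FPKM times gene length gave whole reads for every value within 0.001 reads. Changes were tested on log2(FPKM + 1) with limma 3.58.1 (R 4.3.3), with a variance trend and 1 coefficient per group over 6 libraries. The fit had 3 residual degrees of freedom and 4.02 prior ones, drawn from all genes. Tests were two-sided, with Benjamini-Hochberg adjustment over 12314 genes at 0.05. Fold changes on this scale understate those of low genes. Limits from 0 reads use 3 reads and cover counting error only. Tables were made with Python 3.11.15 and pandas 2.3.3.

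Members and gene lists were chosen with earlier results of these data known. Named genes were KRT6A, RAB39B, the 15 highest and 15 lowest called protein-coding genes, those with the largest shifts in FPKM, those with the largest changes that also differed from si1, called list members and the extremes among non-coding genes, from which the text draws. Simulated data for si2 against NC, on 12335 genes, recovered 74.1% of 1.5-fold, 92.9% of 2-fold and 98.4% of 4-fold changes, with 17 false calls. The simulation gave every gene the same extra spread, kept si1 at the level of NC and changed far fewer genes than were called here. These rates may therefore not carry over to the data. A few genes and 1 sequence that the rule names are not reported here. Other pseudocounts, filters, scalings, fits and left-out libraries were tried.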

Additional observations from a re-analysis of the deposited data

Results flagged for a closer look

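The si2 and si1 groups differed from each other beyond the limma test in 2233 genes that si2 also moved from NC in the same direction. Among genes that the groups moved in opposite directions from NC, the difference of si2 from si1 on the log2 scale was 2.80 for CTGF, 2.66 for F2RL1, 2.58 for EREG, 2.51 for IGFBP1 and 2.23 for PTX3. On the other side it was −2.59 for ZBED6CL, which stood at 8.85 and 10.8 FPKM in NC, 36.6 and 34.1 in si1, and 4.71 and 5.34 in si2, and −2.02 for SMIM14.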

How the results depend on the processing

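The counts kept within 1.5 times of their values under other pseudocounts, a minimum of 5 FPKM, the 4 libraries alone, both rescalings, no variance trend and voom. With no filter on low values, 27463 genes were tested and 1962 were called, 883 higher and 1079 lower, with 357 list members and 1220 genes that also differed from si1. With 1 library left out, the calls ran from 1386 to 1890, the higher ones from 609 to 791, the lower ones from 777 to 1099, list members from 252 to 330 and genes that also differed from si1 from 937 to 1183. The cause of these drops was not tested. The median of GTCTGCA carriers, −0.139, was −0.162 at 5 FPKM, −0.125 with median centring, −0.127 with quantile normalization, −0.064 with no filter, −0.172 and −0.154 with pseudocounts of 0.1 and 0.5, −0.176 with voom and −0.153 in the longest 3′ UTR, and −0.147 to −0.133 with a library left out. MT-CYB changed sign to 0 with quantile normalization, and CD14, a leukocyte marker that was not called, stood at −0.13 without NC replicate 1 and −0.01 without si2 replicate 2, within a range of −0.13 to 0.38 over the left-out libraries. Of 381 called genes named by the rule, 98 to 137 lost their call with a library left out.

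Libraries with the same replicate number showed no clear shared deviation, with correlations of deviations of −0.0576, 0.0377 and −0.0612 between groups. The labels do not say whether such libraries were prepared together, and these correlations cannot show it. With the replicate block, 3136 genes were called, 1450 higher and 1686 lower, with 533 list members and 1945 that also differed from si1. With 2 libraries a group, small changes could not be detected reliably.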
